A study of Mus musculus with 2 samples.

Results

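Inhibitory checkpoint receptors of T cells were represented by 8 genes, Pdcd1, Lag3, Havcr2, Tigit, Ctla4, Cd160, Cd244 and Entpd1. They were taken by name from the deposited expression matrix, which lists 15121 genes, and all 8 were in it. Inhibitory receptors appear on T cells after antigen stimulation and damp signalling through the antigen receptor or through CD28. In tumours, where antigen persists, CD8 T cells often carry several of them together, a state described as dysfunction or exhaustion, while regulatory T cells carry CTLA-4 constitutively. A single inhibitory receptor is also a normal mark of recent activation, so the number of different receptors on a cell is commonly used beside the level of each.

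The cells were labelled as T cells of a syngeneic mouse model of melanoma, NILER, whose tumour line carries mutated Nras and was exposed to ultraviolet light, and the titles name day 5. The untreated library is the control, and the treated library is labelled Trametinib+BGB-283, a combination of an inhibitor of the kinase MEK with an inhibitor of RAF kinases. Each condition is 1 droplet 3' library, and the age and number of the mice and the way the T cells were isolated are not given in the sources used here. No test was therefore possible, and treatment cannot be told apart from any other difference between the 2 libraries.

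The untreated library held 9312 cells with a median of 6155 UMIs (molecules counted by their barcodes), and the treated library 8078 cells with a median of 5988. The libraries shared 35 cell barcodes. After filtering 8696 and 7344 cells remained, of which 92.3% and 92.6% matched the T cell label by a UMI of Trac or of a CD3 chain gene (Cd3d, Cd3e, Cd3g). Cells were gated by their own UMIs into CD8 cells (Cd8a or Cd8b1 without Cd4 or Foxp3), CD4 cells (Cd4 without Cd8a, Cd8b1 or Foxp3) and Foxp3 cells (Foxp3 without Cd8a or Cd8b1). There were 4622 untreated and 4955 treated CD8 cells, 988 and 499 CD4 cells, and 553 and 437 Foxp3 cells. Naive-state cells, those with a UMI of a naive T cell marker such as Ccr7 or Lef1, made up 81.6% of untreated and 26.2% of treated CD8 cells. Levels are in CPM, UMIs scaled to the total of the gate. Intervals are exact 95% intervals that cover counting error only. Those of a mean number of receptors are instead the summed bounds of the members, which are wider. Shares of cells with a receptor are given after every cell was thinned to 2000 UMIs unless stated otherwise.

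In CD8 cells, receptors were detected in more cells of the treated than of the untreated library. The mean number of the 8 receptors per thinned cell was 0.672 untreated (0.6155 to 0.733) and 1.325 treated (1.254 to 1.399). Without thinning the means were 1.592 and 2.755. No receptor was detected in 63.2% of untreated CD8 cells (61.7 to 64.6) and in 28.7% of treated ones (27.4 to 30.0). Exactly 1 receptor was detected in 18.2% and 29.9%, and 2 receptors in 10.3% and 25.6%. At least 3 receptors were detected in 8.35% of untreated (7.56 to 9.19) and 15.9% of treated CD8 cells. The highest number in any thinned untreated CD8 cell was 6. Among CD8 cells with any receptor, 50.6% untreated and 58.1% treated had at least 2.

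The higher number in the treated library was not seen once naive-state cells were left out. This cut, at 1 naive marker UMI, left out 3771 of 4622 untreated and 1299 of 4955 treated CD8 cells. With only cells of 3 or more such UMIs left out, a filter chosen after seeing the data, the treated mean stayed higher. CD8 cells other than naive-state had a mean of 1.716 receptors untreated (819 thinned cells) and 1.563 treated (3583 cells), a difference of -0.152. The summed bounds of -0.449 to 0.132 are wider than counting error and do not show that the means were alike. In these cells at least 3 receptors were detected in 25.3% untreated (22.3 to 28.4) and 18.8% treated (17.5 to 20.1), and at least 4 in 8.55% and 4.21%. Cells without any receptor made up 16.7% and 16.5% of them. Naive-state CD8 cells had means of 0.443 and 0.661. With cycling cells (a UMI of Mki67, Top2a or Birc5) left out instead, the means of all remaining CD8 cells were 0.419 and 1.274. The plot of receptor numbers shows the untreated CD8 cells mainly at 0 and the treated ones spread over 0, 1 and 2.

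**Figure D1:**
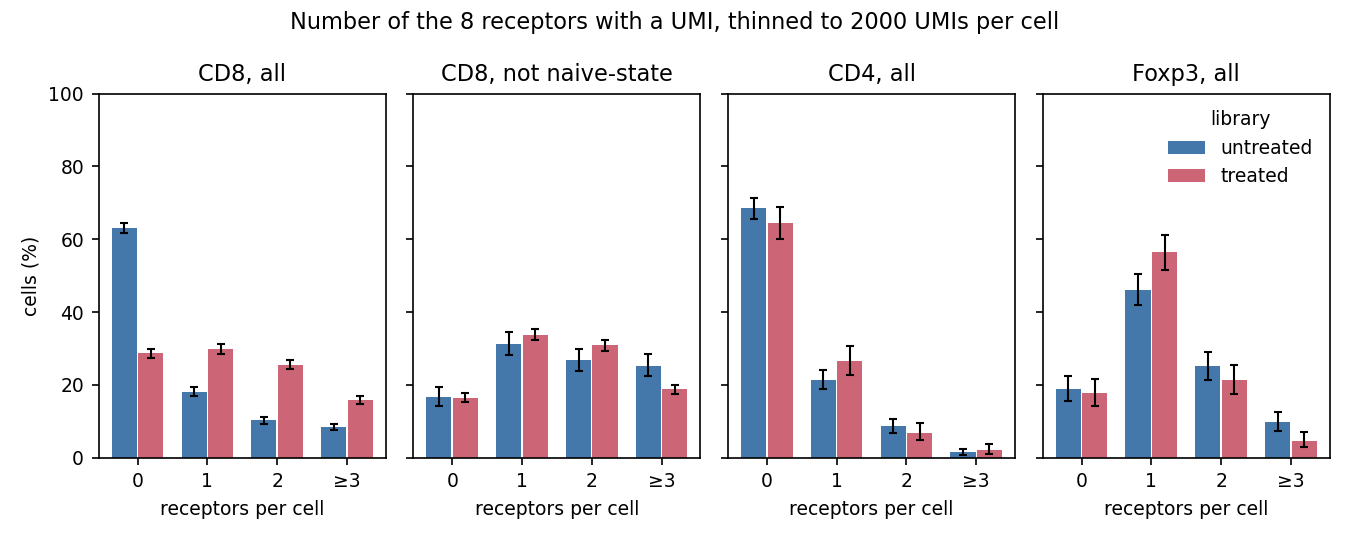
Share of cells (%) with 0, 1, 2 or at least 3 of the 8 receptors after thinning to 2000 UMIs, for all CD8 cells, CD8 cells other than naive-state, CD4 cells and Foxp3 cells. Bars are the untreated (blue) and treated (red) library with exact 95% intervals for counting error. Untreated CD8 cells had 63.2% at 0 against 28.7% treated, while among CD8 cells other than naive-state the shares at 0 were 16.7% and 16.5%.

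Of the 8 receptors, Pdcd1, Lag3 and Ctla4 had the highest levels in CD8 cells of the treated library, and each was higher there than in the untreated library. Pdcd1 encodes PD-1, which recruits the phosphatase SHP-2 to the antigen receptor and to CD28. It stood at 199 CPM untreated and 325 CPM treated, 1.64-fold higher (1.59 to 1.68). Its share of thinned cells was 16.5% (15.4 to 17.6) and 39.2% (37.8 to 40.6). Lag3, whose product binds MHC class II, stood at 149.7 and 226 CPM, 1.51-fold higher (1.46 to 1.56), with 13.9% and 31.5% of cells. Ctla4 encodes CTLA-4, which competes with CD28 for CD80 and CD86. It stood at 135.5 and 218 CPM, 1.61-fold higher (1.55 to 1.66), with 13.25% and 28.05% of cells. These were the 3 of 6 members with enough counts (at least 50 UMIs and 20 CPM in 1 library) that were at least 1.5-fold higher, and none of the 6 was at least 1.5-fold lower. Over all 5854 genes with such counts in CD8 cells, 30.6% were at least 1.5-fold higher and 15.8% at least 1.5-fold lower, so the direction of these members was also that of many other genes. The median log2 ratio was 0.50 over the 6 members and 0.16 over all these genes.

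The other 5 receptors were lower in level, and in all CD8 cells all but Tigit differed by less than 1.5-fold. Without cycling cells, however, Havcr2 was 2.04-fold (1.84 to 2.26) and Entpd1 2.16-fold (1.91 to 2.45) higher in the treated library. Havcr2 encodes TIM-3, a receptor of terminally differentiated CD8 cells and of myeloid cells. It stood at 39.1 and 48.4 CPM, 1.24-fold higher (1.16 to 1.32), with 4.04% and 7.78% of thinned cells. Entpd1 encodes CD39, the surface enzyme that breaks down extracellular ATP towards adenosine, and stood at 26.3 and 34.5 CPM, 1.31-fold higher (1.21 to 1.42). Cd160, a receptor for HVEM on cytotoxic cells, stood at 99.2 and 91.9 CPM, a ratio of 0.927 (0.886 to 0.970). Its share of thinned cells went the other way, at 13.05% and 15.05%, and without cycling cells its ratio was 1.11 (1.05 to 1.18). Cd244, a receptor for CD48 on cytotoxic and myeloid cells, stood at 19.8 and 19.3 CPM, a ratio of 0.975 whose interval of 0.882 to 1.078 includes 1. Tigit, which binds the nectin-like molecule CD155, had only 73 and 245 UMIs in all CD8 cells, or 1.65 and 6.73 CPM, a ratio of 4.09 (3.14 to 5.39). At this level Tigit was seen in 0.330% and 1.46% of thinned cells, the lowest share of the 8 in both libraries.

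For Pdcd1, Lag3 and Cd160 the level within cells that had the receptor was close in the libraries. Among untreated CD8 cells with at least 1 Pdcd1 UMI, before thinning, Pdcd1 stood at 437 CPM, and among treated ones at 461 CPM. Lag3 stood at 347 and 344.5 CPM among the cells that had it. Cd160 stood at 220.5 and 216 CPM among its cells. Ctla4 stood at 304 and 369, Havcr2 at 119.5 and 173 and Entpd1 at 89.8 and 145 CPM among theirs. The Pdcd1 cells of the untreated library had a median of 12338 total UMIs against 6938 treated, and a cell enters this group by its own count, so these levels are a description of detected cells and no estimate for all.

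**Figure D2:**
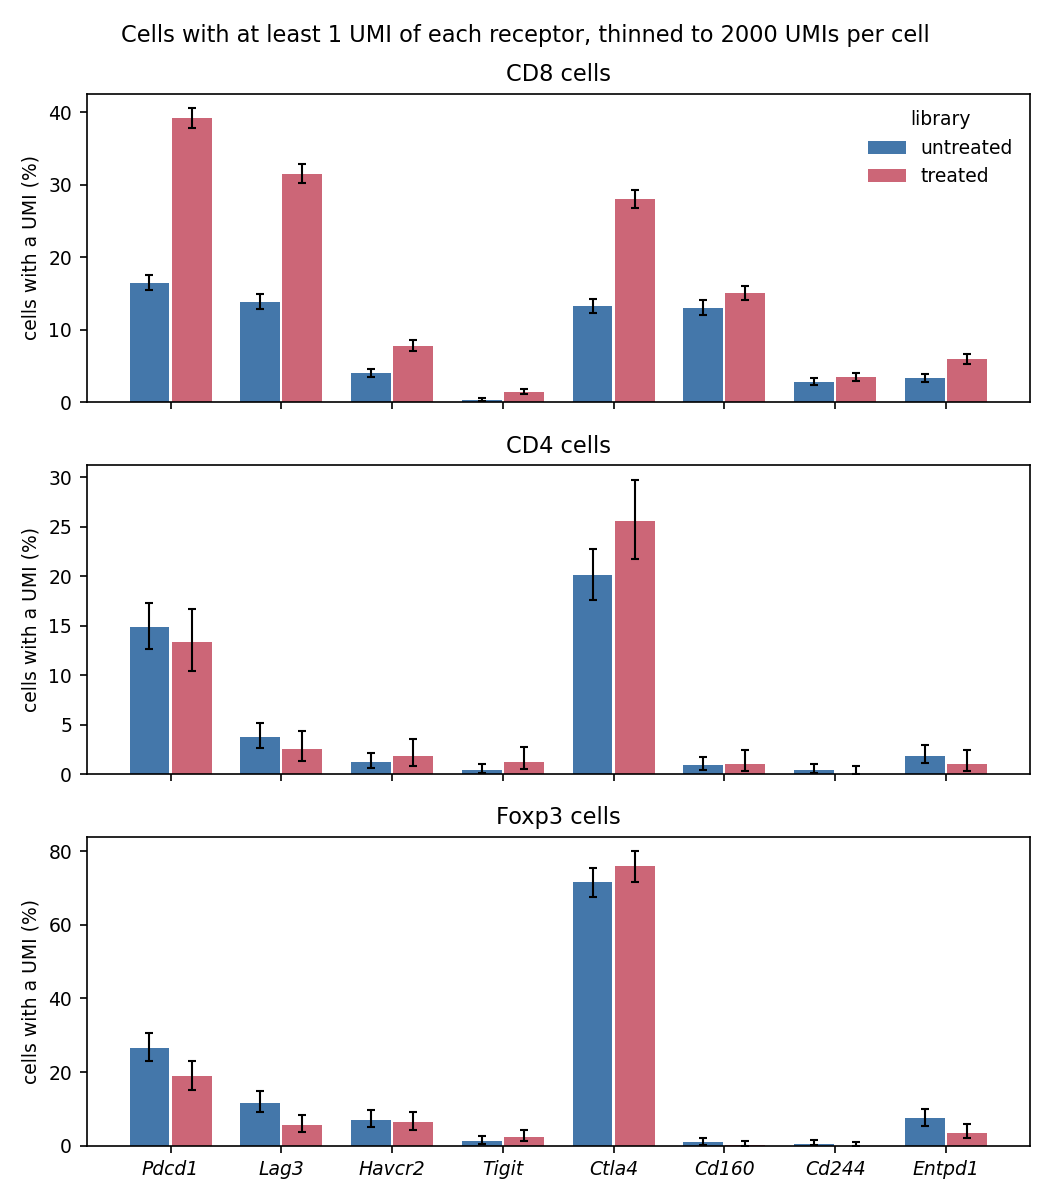
Share of cells (%) with at least 1 UMI of each receptor after thinning to 2000 UMIs, in CD8, CD4 and Foxp3 cells. Bars are the untreated (blue) and treated (red) library, and error bars are exact 95% intervals for counting error. In CD8 cells Pdcd1 reached 16.5% and 39.2%, and in Foxp3 cells Ctla4 reached 71.6% and 75.9%.

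The naive-state share differed between the libraries beside these CD8 differences, and its part in them was not tested beyond leaving such cells out. In CD8 cells other than naive-state, Pdcd1 stood at 382 and 375 CPM, a ratio of 0.9805 (0.944 to 1.019). Lag3 stood at 323 and 265 CPM, Havcr2 at 86.4 and 57.0 CPM and Entpd1 at 56.4 and 39.7 CPM, so the direction of these 3 was turned. Lag3 was 1.22-fold lower (1.17 to 1.27), Havcr2 1.52-fold lower (1.39 to 1.65) and Entpd1 1.42-fold lower (1.28 to 1.58). Cd160 was 1.57-fold lower at 155 and 99.0 CPM, and Cd244 1.94-fold lower (1.71 to 2.21) at 43.3 and 22.3 CPM. Ctla4 remained slightly higher at 223 and 244 CPM, a ratio of 1.10 (1.04 to 1.15), and Tigit had a ratio of 2.64 from 26 and 200 UMIs. With cycling cells left out, by contrast, Pdcd1 stood at 99.0 and 312 CPM, 3.15-fold higher, Lag3 was 2.57-fold and Ctla4 2.96-fold higher. That filter kept 2276 of 8821 untreated and 7837 of 11828 treated Pdcd1 UMIs. What part this unequal removal has in the larger ratios was not tested. These splits are descriptions, since a naive-state cell is defined by its UMIs and detection grows with depth.

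Markers of other cells also differed between the libraries within the gate. The 8 macrophage markers summed to 969 CPM in untreated and 186 CPM in treated CD8 cells, with none at 0, and hemoglobin transcripts to 534 and 2.86 CPM. When cells with at least 2 UMIs of macrophage, B cell or dendritic markers were left out, the log2 ratio of Pdcd1 was 0.98 against 0.71 in all CD8 cells, that of Lag3 0.92 against 0.59 and that of Ctla4 1.07 against 0.68. Havcr2 moved from 0.31 to 0.90 and Entpd1 from 0.39 to 1.00 in the same comparison. This filter left out 27.2% of untreated and 11.75% of treated CD8 cells, by UMIs not adjusted for depth. What part this unequal removal has in the larger ratios was not tested. As free RNA in droplets can give a UMI to any cell, cells that should lack the receptors serve as background. In 62 untreated stromal or tumour cells, with a median of 40746 UMIs against 6751 in CD8 cells, Pdcd1 was found in 1.61%, Lag3 in 3.23% and Ctla4 in 4.84% before thinning. Before thinning the shares in untreated CD8 cells were 28.15% for Pdcd1, 26.2% for Lag3 and 28.1% for Ctla4. Tigit was found in 1.49% of untreated CD8 cells before thinning, and its 0 UMIs in the 62 stromal or tumour cells allow a share of up to 4.84%, taken as 3 UMI-bearing cells over the number of cells. In 87 treated B cells, with a median of 2806 UMIs against 6463 in treated CD8 cells, Pdcd1, Havcr2 and Tigit were not found, which by the same rule allows shares of up to 3.45%. Lag3 was found in 2.30% and Ctla4 in 1.15% of these B cells, against 59.3% and 53.9% of treated CD8 cells before thinning. Shares were higher in untreated dendritic cells, at 21.5% for Lag3 and 14.7% for Ctla4, and in untreated macrophages or monocytes, at 13.7% and 5.46%. Whether those UMIs came from free RNA was not tested.

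Pdcd1, Ctla4 and Havcr2 are shown here with their promoters, because PD-1 is a known target of NFAT, which with AP-1 is switched on by the antigen receptor, and the others are a constitutive receptor of regulatory T cells and one shared with myeloid cells. The sequences are from RefSeq on mouse build GRCm38.p6, each on the strand of its gene, with 250 bases before the start and 50 after it. Of the 8 members, 7 were in that table. Capitals mark the NFAT core GGAAA and the AP-1 motif TGANTCA on either strand, which do not overlap in these windows. The build is that of the sequences only, as the submitters' processing notes name the human build GRCh38 for these mouse data. The Pdcd1 window is chr1:94052504-94052803 on the minus strand, that of Ctla4 chr1:60908775-60909074 on the plus strand and that of Havcr2 chr11:46454681-46454980 on the plus strand.
Pdcd1: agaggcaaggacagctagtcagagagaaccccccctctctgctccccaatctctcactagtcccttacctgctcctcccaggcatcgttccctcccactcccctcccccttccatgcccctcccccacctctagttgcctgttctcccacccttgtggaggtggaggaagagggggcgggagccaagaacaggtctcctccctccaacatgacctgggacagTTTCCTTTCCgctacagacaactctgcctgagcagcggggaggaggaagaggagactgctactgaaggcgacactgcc
Ctla4: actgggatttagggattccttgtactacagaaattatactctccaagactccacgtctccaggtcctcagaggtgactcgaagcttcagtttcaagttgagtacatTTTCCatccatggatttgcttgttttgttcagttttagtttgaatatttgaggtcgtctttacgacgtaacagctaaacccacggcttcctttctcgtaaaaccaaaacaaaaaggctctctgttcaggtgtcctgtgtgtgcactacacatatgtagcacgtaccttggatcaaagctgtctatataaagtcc
Havcr2: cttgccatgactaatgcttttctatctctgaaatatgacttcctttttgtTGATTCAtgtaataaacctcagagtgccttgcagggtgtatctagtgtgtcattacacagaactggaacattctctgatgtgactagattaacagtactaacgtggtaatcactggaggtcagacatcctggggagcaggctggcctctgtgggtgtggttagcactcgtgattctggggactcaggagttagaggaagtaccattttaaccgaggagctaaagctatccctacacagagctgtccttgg
The Pdcd1 window holds 2 NFAT cores side by side just before the start, at positions 223 and 228 counted from its first base, and no AP-1 motif. The Ctla4 window holds 1 NFAT core at position 107, and the Havcr2 window holds no NFAT core and an AP-1 motif at position 51. The NFAT core was in 61.3% of the 32851 promoters of the table and the AP-1 motif in 7.81%, so an NFAT core in such a window is common. A match is a description of letters and not a binding site.

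In untreated CD8 cells, having any receptor went with having others. Of the 28 pairs, 20 were expected in at least 5 thinned cells from the product of the 2 shares in both libraries. All 20 had an odds ratio above 1 in the untreated library, with a median log2 odds ratio of 2.07 (range 0.62 to 3.45). In the treated library 17 of the 20 were above 1, with a median of 0.36 (range -0.16 to 0.99). Thinned cells share the same library and an equal number of UMIs, and pairs share members, so these medians carry no test. Without thinning they were 3.25 and 1.25.

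The strongest untreated pair was Pdcd1 with Lag3. Of untreated CD8 cells with Lag3, 55.5% (51.5 to 59.4) also had Pdcd1, against 10.2% (9.30 to 11.2) of those without Lag3. In the treated library these shares were 50.1% (47.6 to 52.6) and 34.1% (32.5 to 35.8). The libraries thus differed mainly in the cells without Lag3, of which more had Pdcd1 in the treated library. Pdcd1 with Ctla4 gave 47.4% against 11.8% untreated and 50.4% against 34.8% treated. Lag3 was in 52.2% of untreated CD8 cells with Havcr2 and in 12.25% of those without, and in 42.2% and 30.6% treated. Entpd1 cells had Lag3 in 47.1% untreated and 39.2% treated, against 12.7% and 31.0% of cells without Entpd1.

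Cd160 had the lowest values among the 20 pairs. Its untreated log2 odds ratios in them ranged from 0.62 with Entpd1 to 1.73 with Cd244, another receptor of cytotoxic and natural killer cells. In the treated library Cd160 with Ctla4 was at -0.0051 and Cd160 with Havcr2 at -0.16. Of treated CD8 cells with Cd160, 27.97% (24.7 to 31.4) had Ctla4, against 28.1% (26.7 to 29.5) of those without.

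Leaving out naive-state cells lowered co-detection in both libraries. The median log2 odds ratio of the same 20 pairs was then 0.57 untreated and 0.10 treated, with 14 and 12 of 20 above 0. Pdcd1 with Lag3 stood at 1.31 and 0.25, and Havcr2 with Entpd1 at 1.12 and 0.54. Cd160 with Pdcd1 was at -0.38 untreated, where 41.45% of cells with Cd160 (34.4 to 48.75) and 47.9% of those without (43.95 to 51.9) had Pdcd1. With cycling cells left out the medians were 3.002 and 0.525. The heatmap of all CD8 cells sets the libraries side by side.

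**Figure D3:**
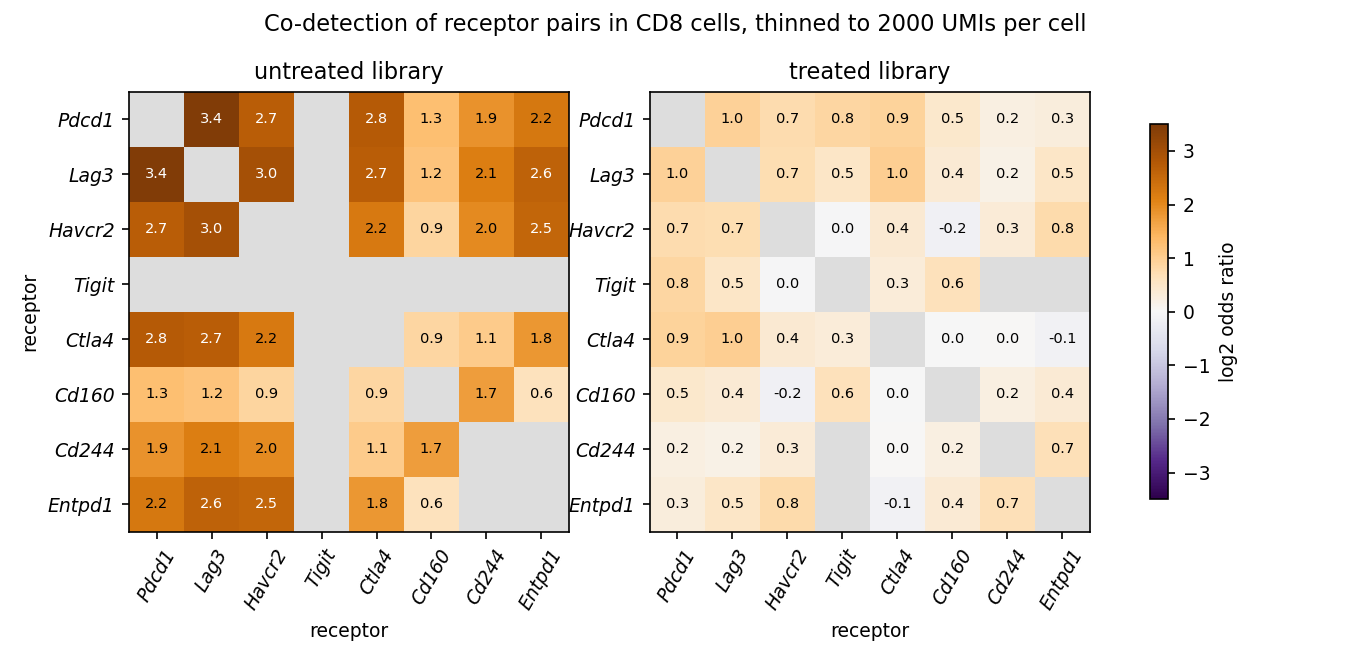
Log2 odds ratio of detecting both receptors of a pair in CD8 cells after thinning to 2000 UMIs, untreated library on the left and treated on the right. Rows and columns are the 8 receptors, and grey fields are pairs expected in fewer than 5 cells or a receptor with itself. Pdcd1 with Lag3 is the strongest untreated pair at 3.45, and the highest treated value is 0.99, for Lag3 with Ctla4.

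The 5 most frequent combinations were the same in both libraries. Pdcd1 with Lag3 and no other member was the most frequent combination of at least 2 receptors, in 2.53% of untreated (2.09 to 3.02) and 6.10% of treated CD8 cells (5.44 to 6.81). Pdcd1 with Ctla4 followed at 1.98% and 5.32%, and Pdcd1 with Lag3 and Ctla4 at 1.52% and 4.17%. Lag3 with Ctla4 was found in 1.14% and 3.72%, and Pdcd1 with Cd160 in 1.10% and 2.485%. In all, 93 combinations of at least 2 receptors were seen in untreated and 100 in treated CD8 cells.

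CD4 cells carried fewer receptors, mostly Ctla4 and Pdcd1. The mean number per thinned cell was 0.436 untreated and 0.466 treated, a difference of 0.030 with wide summed bounds of -0.187 to 0.272. No receptor was detected in 68.5% (65.5 to 71.4) and 64.45% (59.99 to 68.7). Ctla4 stood at 199 CPM untreated and 325 CPM treated, 1.63-fold higher (1.49 to 1.79), with 20.1% and 25.6% of cells. Pdcd1 stood at 113 and 104 CPM, a ratio of 0.924 whose interval of 0.798 to 1.067 includes 1. Lag3 stood at 38.7 and 22.4 CPM, 1.73-fold lower (1.29 to 2.36), from 224 and 57 UMIs. These 3 were the members with enough counts, and 1 was at least 1.5-fold higher and 1 lower, where 24.6% and 19.8% of 5937 genes were. Of the remaining members, Havcr2 stood at 10.5 and 10.2 CPM, Cd160 at 5.36 and 5.50 CPM and Tigit at 1.04 and 3.53 CPM.

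Entpd1 and Cd244 in CD4 cells stood beside a large difference in macrophage markers. Entpd1 stood at 19.5 CPM untreated and 9.03 CPM treated, which is 2.16-fold lower (1.37 to 3.55). Cd244 had 52 and 3 UMIs. The 8 macrophage markers summed to 2997 and 409 CPM in the same cells, with none at 0. Without cells that had at least 2 UMIs of macrophage, B cell or dendritic markers, Entpd1 had a log2 ratio of 1.42 in place of -1.11, and Cd244 0.10 in place of -2.93. Havcr2 moved from -0.05 to 1.23, while Ctla4 kept 0.79 and Lag3 -0.60. Treated CD4 cells held only 23 Entpd1, 26 Havcr2 and 3 Cd244 UMIs before this filter. It left out 17.6% of untreated and 7.82% of treated CD4 cells. The filtered values have no intervals. CD4 cells other than naive-state had a mean of 0.782 receptors untreated and 0.479 treated, with Pdcd1 at 205 and 131 CPM and Ctla4 at 311 and 316.5 CPM. In naive-state CD4 cells Ctla4 stood at 156 and 329 CPM. Pdcd1 with Ctla4 was the only pair expected in at least 5 cells of both libraries. Of untreated CD4 cells with Ctla4, 35.75% had Pdcd1 (29.0 to 42.95) against 9.62% without, and 21.1% against 10.6% treated.

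Foxp3 cells carried Ctla4 in nearly all cells, as is known for regulatory T cells. Ctla4 had a UMI in 88.8% of untreated and 89.0% of treated Foxp3 cells before thinning. It stood at 1123 and 1284 CPM, 1.14-fold higher (1.10 to 1.19), and that ratio was 0.988 without cycling cells. Pdcd1, Lag3 and Entpd1 were lower in the treated library. Pdcd1 stood at 192 and 137 CPM, 1.40-fold lower (1.25 to 1.57), with 26.6% and 18.9% of thinned cells. Lag3 stood at 79.4 and 42.8 CPM, 1.86-fold lower (1.52 to 2.27), with 11.7% (9.12 to 14.7) and 5.66% (3.66 to 8.30) of thinned cells. Entpd1 stood at 39.6 and 27.6 CPM, 1.435-fold lower (1.11 to 1.87), and Havcr2 at 42.55 and 43.7 CPM, a ratio of 1.03 (0.822 to 1.280). Within each library Tigit was higher in Foxp3 than in CD8 cells, at 6.56 and 11.2 CPM from 31 and 36 UMIs. Cd160 had 20 and 10 UMIs, and Cd244 38 and 7 UMIs.

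Of the 5 members with enough counts in Foxp3 cells, none was at least 1.5-fold higher and 1, Lag3, was lower. Over 5939 genes 16.7% were higher and 12.9% lower by that much. The macrophage markers summed to 2024 and 355 CPM in Foxp3 cells, with none at 0, and 37.97% and 16.9% of them had at least 2 UMIs of macrophage, B cell or dendritic markers. Without those cells Pdcd1 had a log2 ratio of -0.41 against -0.49, Lag3 -0.72 against -0.89, Havcr2 0.54 against 0.04 and Entpd1 -0.17 against -0.52. The difference in Lag3 was larger in Foxp3 cells other than naive-state, at 122 and 35.6 CPM, than in naive-state ones, at 60.8 and 46.1 CPM.

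The mean number of receptors per thinned Foxp3 cell was 1.271 untreated and 1.130 treated, a difference of -0.142. The summed bounds of -0.487 to 0.216 are wider than counting error and do not show that the means were alike. At least 3 receptors were detected in 9.85% (7.47 to 12.7) and 4.72% (2.91 to 7.20), and exactly 1 in 46.1% and 56.4%. Pdcd1 with Ctla4 was the leading combination at 14.7% and 11.3%. Of untreated Foxp3 cells with Ctla4, 30.9% (26.3 to 35.8) had Pdcd1 against 15.7% (10.3 to 22.4) of those without. In the treated library the shares were 19.25% (15.1 to 24.0) and 17.65% (10.8 to 26.45), with intervals that overlap.

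Genes that work with these receptors were read from lists chosen with earlier results of these data known, in the same CD8 cells. Among 7 ligands with enough counts, 2 were at least 1.5-fold higher and none lower. Over all genes with enough counts in CD8 cells 30.6% were higher and 15.8% lower, so shares of a list near these, as for the ligands, say nothing about the list. The higher ligands were Lgals3, a galectin that binds LAG-3, at 203 and 489 CPM, and Pdcd1lg2, the PD-1 ligand PD-L2, at 22.7 and 38.3 CPM. The lowest were Lgals9, a ligand of TIM-3, at 55.1 and 48.7 CPM, and Cd86 at 24.5 and 22.9 CPM. Of 6 further inhibitory receptors 1 was higher and 2 lower. Klrc1, which encodes NKG2A, stood at 122 and 294.5 CPM and Cd5 at 103 and 123.5 CPM, while the collagen receptor Lair1 was lower at 22.3 and 5.74 CPM, beside Cd72 at 44.3 and 15.7 CPM. Lair1 and Cd72 are also genes of myeloid and B cells. The part of the macrophage and B cell markers, which summed to 969 and 186 CPM and to 14.4 and 7.15 CPM, in these values was not tested.

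Receptors that oppose or compete with the members varied. Of 9 costimulatory or competing receptors 1 was higher and 1 lower in CD8 cells. Over all genes with enough counts in these cells 30.6% were higher and 15.8% lower. Icos, a relative of CD28, stood at 54.9 and 211 CPM, 3.84-fold higher, and Cd226, which competes with TIGIT for CD155, at 71.2 and 102 CPM. Slamf6, a marker of progenitor-like CD8 cells, stood at 45.1 and 10.1 CPM, and Tnfrsf4 at 177 and 151 CPM. Of 9 adaptors and phosphatases 5 were higher and none lower. Lrba, which returns CTLA-4 to the surface, stood at 11.2 and 30.7 CPM, and Inpp5d, the phosphatase SHIP-1, at 47.8 and 112 CPM. Ptpn6, which encodes SHP-1, stood at 139 and 95.9 CPM, and Sh2d1a, the adaptor of CD244, at 115 and 85.15 CPM. The adenosine pathway, in which CD39 acts, had 3 such genes and none past 1.5-fold, with Adora2a at 31.0 and 43.7, Pde4b at 40.5 and 56.0 and Cd38 at 21.75 and 29.6 CPM.

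Transcription factors tied to receptor expression stood further apart than the receptors. Of 11 exhaustion factors 8 were at least 1.5-fold higher in treated CD8 cells and none lower, with a median log2 ratio of 1.41. The shares over all genes with enough counts were 30.6% higher and 15.8% lower. Nr4a3, induced by the antigen receptor, stood at 41.0 and 579 CPM, 14.1-fold higher (13.45 to 14.8), and Nr4a2 at 181 and 1061 CPM, 5.88-fold higher. Batf at 48.3 and 57.55 CPM and Id2 at 608 and 616 CPM differed least. Of 11 naive and stem factors 8 were lower and 1 higher, with a median of -1.40. Klf2 stood at 636 and 74.6 CPM, Foxo1 at 67.25 and 132 CPM and Bach2 at 28.7 and 32.7 CPM. The members, with a median of 0.50, lay between these lists.

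The same lists in Foxp3 cells gave 0 higher and 2 lower of 9 ligands, 1 higher and 3 lower of 8 further inhibitory receptors, and 1 higher and 0 lower of 9 costimulatory receptors. Over all genes with enough counts in Foxp3 cells 16.7% were higher and 12.9% lower, and counts of 1 of 8 or 1 of 9 are near those shares. Lgals3 was 1.67-fold lower at 150.1 CPM treated, Cd86 stood at 27.9 and 18.6, Cd80 at 21.2 and 30.4 and Cd274, the PD-1 ligand PD-L1, at 59.3 and 84.6 CPM. Lair1 stood at 28.2 and 3.72, Cd200r1 at 32.0 and 17.7, Cd5 at 326 and 342 and Cd200 at 23.1 and 35.65 CPM. Icos stood at 336 and 609 CPM, Tnfrsf9 at 889 and 1133, Cd226 at 25.2 and 20.15 and Tnfrsf18, which encodes GITR, at 953 and 849.5 CPM. Of 9 adaptors and phosphatases 2 were higher, Lrba at 29.2 and 69.45 CPM and Ptpn11, which encodes SHP-2, at 33.0 and 49.6 CPM. Lower were Sh2d1a at 74.3 and 35.96 CPM and Ptpn6 at 95.5 and 49.6 CPM. Of 4 genes of the adenosine pathway 2 were higher and 1 lower. Nt5e, the enzyme CD73 that acts after CD39, stood at 29.0 and 48.4 CPM, Pde4b at 42.55 and 82.5, Adora2a at 45.1 and 65.1 and Cd38 at 30.1 and 13.3 CPM. Of 12 exhaustion factors 6 were higher, led by Nr4a3 at 76.6 and 412 and Nr4a2 at 113 and 371 CPM, and none was lower, with Id2 at 747 and 504 and Prdm1 at 49.3 and 39.1 CPM. Of 10 naive and stem factors 2 were higher, Satb1 at 81.9 and 144 and Foxo1 at 91.2 and 153.5 CPM, and 3 lower, among them Klf2 at 352 and 58.0 and Id3 at 27.5 and 11.5 CPM.

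CD8 cells were next compared by their number of receptors, separately in each library, with 0, 1, 2 or at least 3 detected after thinning. The untreated groups held 2875, 828, 468 and 380 cells and the treated ones 1397, 1455, 1245 and 773. Cells with more receptors also had more UMIs before thinning: medians ran from 6016 at 0 to 12010 at 3 or more untreated, and from 5995 to 6946 treated. Cycling cells made up 14.3% at 0 and 59.0% at 3 or more untreated, and 15.6% and 25.4% treated. Naive-state cells made up 95.2% and 45.5% untreated, and 57.7% and 13.1% treated. What part depth and cycling have in the levels that follow was not tested.

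Gzmb, which encodes granzyme B, stood at 189 CPM at 0 and 1479 CPM at 3 or more receptors untreated, and at 207 and 424 CPM treated. Prf1, which encodes perforin, stood at 62.35 and 755 CPM untreated and at 42.5 and 133.5 CPM treated. Ifng, the interferon gamma gene, stood at 19.5 and 286 CPM untreated and 76.7 and 207 CPM treated. Tox, a factor that maintains exhausted cells, stood at 32.3 and 121 CPM untreated and at 104 and 291 CPM treated. Nr4a2 stood at 72.3 and 335 CPM untreated and at 678 and 1266 CPM treated. Tcf7, which encodes TCF-1 of naive and progenitor cells, went the other way at 242 and 18.1 CPM untreated and 137 and 3.88 CPM treated. Cd44 stood at 50.5 and 61.9 CPM and at 118 and 198 CPM, Mki67 at 41.4 and 71.15 and at 36.3 and 35.7 CPM, and Cd8a at 409 and 892 and at 442 and 902 CPM.

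**Figure D4:**
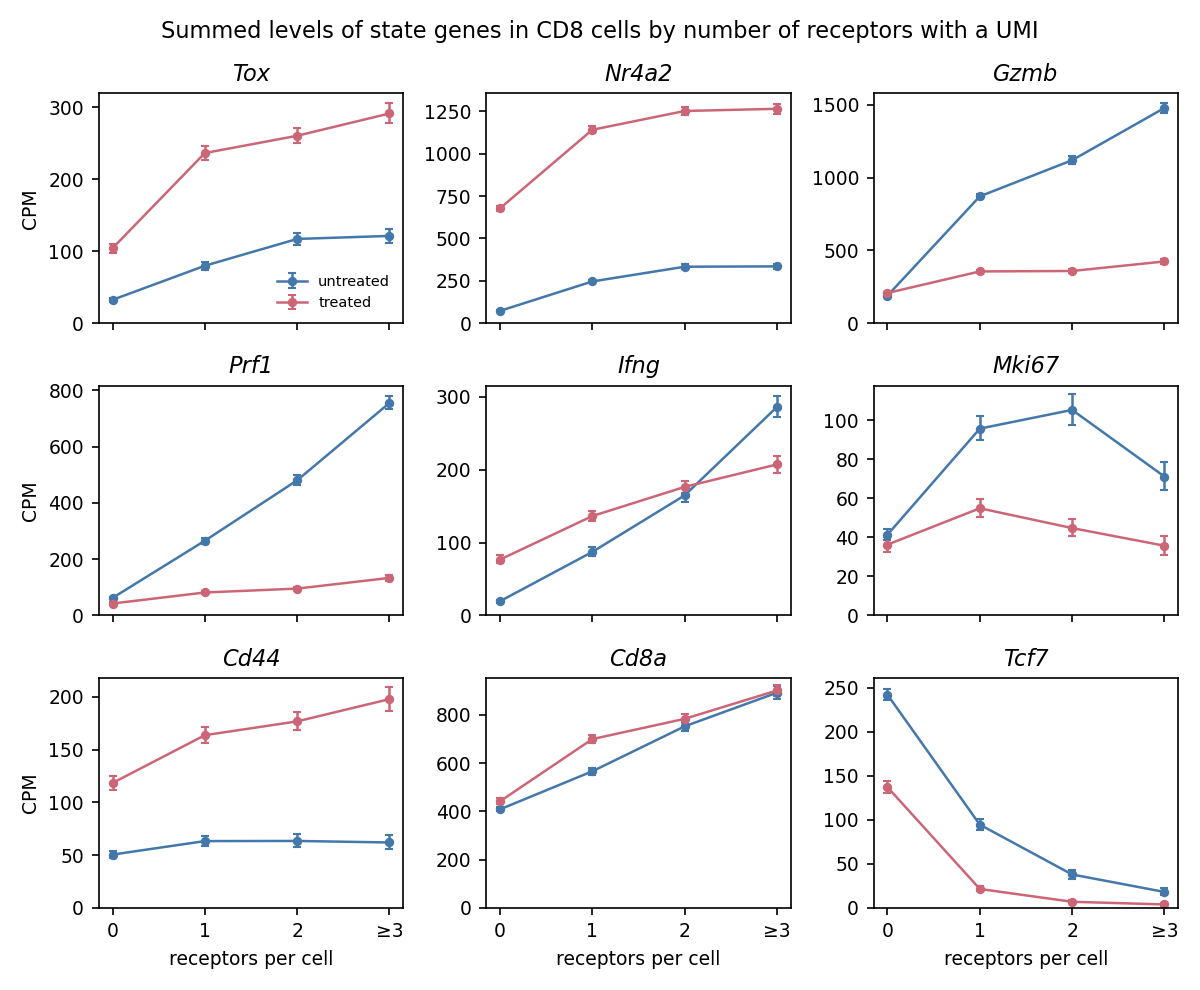
Summed level (CPM, linear axes from 0) of 9 state genes in CD8 cells with 0, 1, 2 or at least 3 of the receptors detected after thinning, in the untreated (blue) and treated (red) library. Error bars are exact Poisson 95% intervals. Gzmb and Prf1 reach 1479 and 755 CPM in the untreated library, Tcf7 is highest at 0 receptors in both, and Tox and Nr4a2 lie higher in the treated library at every number.

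Over all 4866 genes with enough counts, 21.9% were at least 1.5-fold higher in untreated CD8 cells with 3 or more receptors than in those with 0, and 10.6% lower. In the treated library 9.25% were higher and 6.1% lower. The naive and stem factors had 10 of 11 lower untreated and 9 of 11 lower treated, with none higher. The exhaustion factors had 7 and 8 of 11 higher, and 2 and 1 lower. Costimulatory and competing receptors had 5 and 6 of 8 higher and none lower, so they went with the members in this respect. Further inhibitory receptors had 3 of 5 higher and 1 lower in each library, ligands 3 of 7 higher in each and 0 and 1 lower. Adaptors and phosphatases had 3 and 2 of 8 higher, and the adenosine pathway 2 of 3 in each.

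The 10 genes that were highest with receptor number in both libraries were Areg, Il1r2, Serpinb9b, Gzme, Gzmd, Igfbp7, Slc17a6, Tff1, Nrgn and Ccl3. Areg, an EGF receptor ligand, stood at 1.33 CPM at 0 and 25.4 CPM at 3 or more untreated, and at 3.07 and 32.2 CPM treated. Il1r2, the decoy receptor of interleukin 1, stood at 19.5 and 142 CPM and at 10.3 and 63.2 CPM. Gzmd and Gzme, granzymes of strongly stimulated killer cells, were 35.25-fold and 26.55-fold higher untreated and 5.38-fold and 5.60-fold higher treated. Ccl3, a chemokine of activated T cells, was 14.5-fold and 4.20-fold higher. The fold was between 4.635 and 5.85 treated and between 16.15 and 23.2 untreated for Serpinb9b, Igfbp7, Slc17a6 and Tff1, and for Nrgn it was 14.2 and 4.205.

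Among the 10 lowest were Serpinh1, Sparc, Col3a1, S1pr1, Fn1, Sox4, Tm4sf1, Il6ra and Igfbp4. S1pr1, the receptor for leaving tissue, stood at 102 and 3.20 CPM untreated and 83.0 and 1.18 CPM treated, and Il6ra at 55.4 and 3.01 and at 29.8 and 1.01 CPM. Others of the 10 had UMIs in cells with many stromal or tumour marker UMIs, in shares that differed by gene and library. In the group with 0 receptors, 16 of 2875 untreated and 6 of 1397 treated cells had at least 20 UMIs of stromal or tumour markers, a number chosen after the values were seen. These cells held 97.4% and 99.5% of the Sparc UMIs, 97.3% and 99.2% of Col3a1 and 96.8% and 99.1% of Serpinh1. They also held 33.1% and 93.05% of Fn1, 96.5% and 67.4% of Tm4sf1, 70.4% and 60.03% of Sox4 and 48.3% and 93.1% of Igfbp4. The rest of these UMIs lay in other cells of the group with 0 receptors.

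Set against the cell classes outside the 3 T cell gates, some members were highest in T cells and others in myeloid cells. Pdcd1, Lag3 and Ctla4 were highest in the T cell gates, Pdcd1 in treated CD8 cells at 325 CPM, Lag3 in the same cells at 226 CPM and Ctla4 in treated Foxp3 cells at 1284 CPM. Lag3 was also found at 32.75 CPM in untreated dendritic cells and at 28.9 CPM in untreated macrophages or monocytes, against 38.7 CPM in untreated CD4 cells. Ctla4 stood at 18.1 CPM in untreated dendritic cells. Havcr2 was highest in untreated dendritic cells, at 133.5 CPM and in 62.3% of 191 cells, against 44.9 CPM in 50 treated ones. Entpd1 was highest in 58 treated neutrophils, at 389 CPM from only 39 UMIs, and stood at 64.1 and 70.1 CPM in untreated and treated macrophages or monocytes. Cd244 was highest in untreated macrophages or monocytes, at 44.1 CPM against 20.1 CPM treated. Cd160 was highest in untreated gamma delta-gated T cells, at 117 CPM from 58 UMIs in 69 cells, next to untreated CD8 cells at 99.2 CPM. Tigit was not found in macrophages, dendritic cells, neutrophils or B cells. Taken as 3 UMI-bearing cells over the number of cells, this allows shares from 1.57% in untreated to 6% in treated dendritic cells. Tigit was in 1.49% of untreated and 4.78% of treated CD8 cells before thinning, so its absence there carries little weight. Natural killer cells (14 and 45) and some other classes had fewer than 50 cells and are not given.

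**Figure D5:**
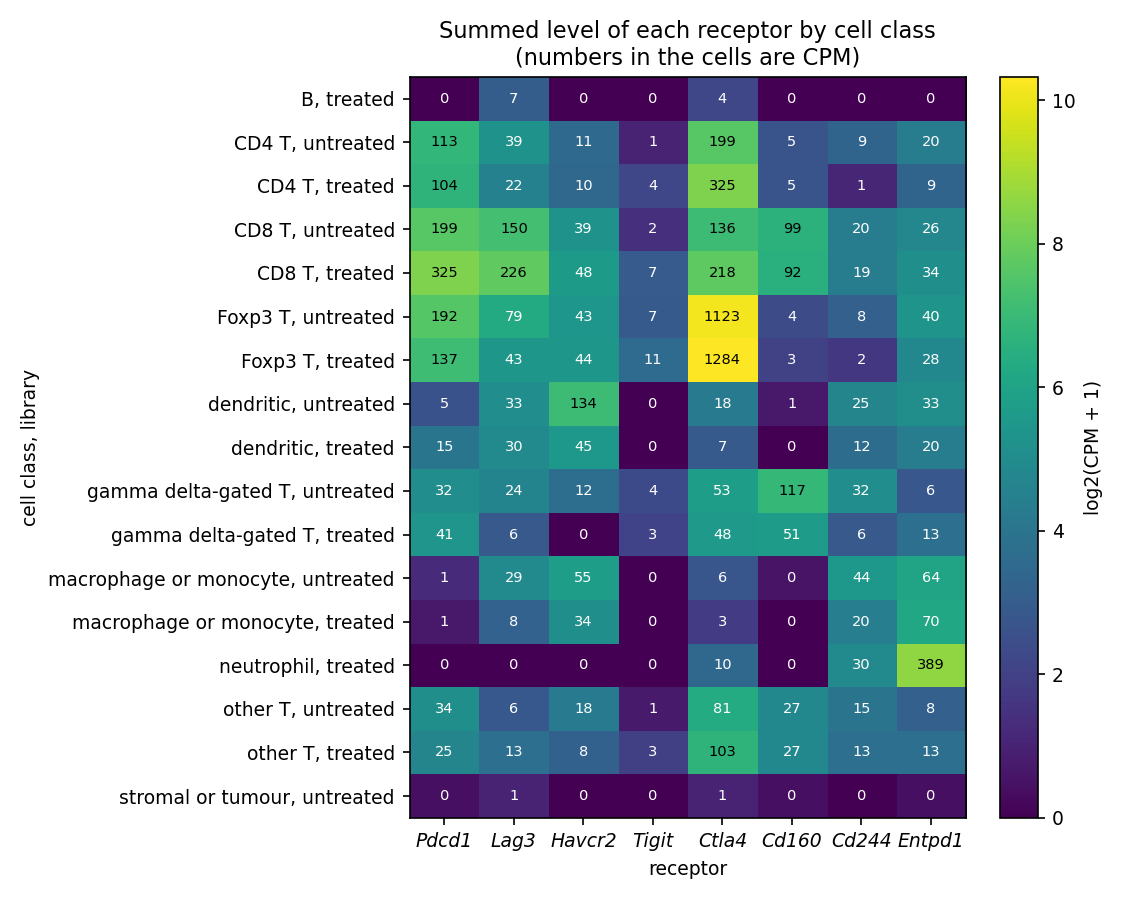
Summed level of each receptor (columns) in every cell class and library with at least 50 cells (rows), coloured by log2(CPM + 1) with the CPM written in each field. Pdcd1 and Lag3 are highest in treated CD8 T cells, Ctla4 in Foxp3 T cells, Havcr2 in untreated dendritic cells and Entpd1 in treated neutrophils.

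Over the 17 class and library points, the genes whose level followed the sum of the 8 members most closely among 8566 genes were Batf (Pearson r of log2(CPM + 10) 0.904), Ccng1 (0.896), Glrx (0.868), Glipr1 (0.866) and Impa2 (0.864). The points share libraries and depth, so these values are a description.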

How the data were processed

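UMIs per gene and cell were measured in 1 untreated and 1 treated library, deposited as the natural log of 1 plus UMIs per 10000 UMIs of each cell. Cell Ranger and Seurat were used, with GRCh38 named as build, per the submitters' processing notes, without versions. Whole UMIs came out for 100% of 38204229 nonzero values (within 0.01) and were used throughout. The libraries held 95349992 and 58318786 UMIs. Cells with at most 10% mitochondrial UMIs and at least 200 genes were kept. Scrublet (scanpy 1.11.5) marked 0.043% and 0.0% of cells by itself, so the 5% with the highest scores in each library were removed. Cells were thinned to 2000 UMIs (shallower ones left out: 71 and 85 CD8, 26 and 18 CD4, 15 and 13 Foxp3 cells). Intervals were exact Poisson, conditional binomial or Clopper-Pearson (95%), for a mean number the sum over members, which is wide. The 8 members and 7 lists were chosen with earlier results of these data known. Named were all members, the 2 highest and 2 lowest genes of each list in CD8 and Foxp3 cells, the 10 highest and 10 lowest genes by receptor number, 10 state genes always and the 5 best correlated genes; 1 gene that these rules name is not reported here. Dendritic cells were named without the MHC class II genes and Cd74 of the marker list, which other cells also express. Ratios and odds ratios were tested on simulated data. Python 3.11.15, numpy 2.4.6, scipy 1.17.1 and pandas 2.3.3 were used. Alternatives covered thinning, gates, cell filters, doublets and scaling.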

Additional observations from a re-analysis of the deposited data

Results flagged for a closer look

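Of the 8 receptors, 3 had ratios of treated over untreated on opposite sides of 1 in different gates, with intervals that exclude 1 on both sides. The difference between gates was not tested, since each condition has 1 library. Pdcd1 had a log2 ratio of 0.71 in CD8 cells and -0.49 in Foxp3 cells. Lag3 had 0.59 in CD8 cells, -0.79 in CD4 cells and -0.89 in Foxp3 cells. Entpd1 had 0.39 in CD8 cells, -1.11 in CD4 cells and -0.52 in Foxp3 cells. In CD8 cells other than naive-state the values were -0.03 for Pdcd1, -0.29 for Lag3 and -0.51 for Entpd1, so none of the 3 was then higher in treated CD8 cells. Without cells that had macrophage, B cell or dendritic markers, Entpd1 stood at 1.42 in CD4 cells, from at most 23 treated UMIs and without an interval. In Foxp3 cells Entpd1 was at -0.32 (-0.84 to 0.19) without cycling cells. It was at -0.29 (-0.75 to 0.17) in naive-state Foxp3 cells and at -0.98 (-1.69 to -0.32) in the others.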

How the results depend on the processing

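Alternatives were fixed with the design, apart from 3 cell filters chosen after seeing the data: leaving out cells with 3 or more naive UMIs, cells with stromal markers as well as macrophage, B or dendritic ones, and naive-state and cycling cells together. The difference in mean receptors per CD8 cell (0.65) was 1.163 without thinning, 0.379 and 1.057 at 1000 and 4000 UMIs, 0.509 from 2 UMIs, 0.854 without cycling cells and 0.785 without cells of other markers, stromal included. It was 0.210 without cells of 3 or more naive UMIs, -0.152 without naive-state cells and -0.0475 without naive-state and cycling cells. The CD4 difference (0.030) was -0.303 and -0.309 under the last 2 filters. The Foxp3 difference stayed within its interval, which is wide because it adds the bounds of the members. The median log2 odds ratio of CD8 pairs (2.07 untreated, 0.36 treated) was 3.245 and 1.247 without thinning and 0.572 and 0.0976 without naive-state cells, and 3.002 untreated without cycling cells.

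Of 343 log2 ratios of members under alternatives 204 stayed within the interval, 119 moved and 20 changed sign. Without naive-state cells CD8 values were -0.028 for Pdcd1, -0.29 for Lag3, -0.60 for Havcr2 and -0.51 for Entpd1. Without cells of 3 or more naive UMIs they were -0.0715 for Lag3, -0.40 for Havcr2 and -0.24 for Entpd1, and without naive-state and cycling cells -0.28, -0.69 and -0.38. Cd160 in CD8 cells was 0.15 without cycling cells and 0.069 as a difference of mean deposited natural log values. In CD4 cells Tigit was -0.70 and Ctla4 -0.48 without naive-state and cycling cells, Cd244 0.10 and Entpd1 1.418 without macrophage, B or dendritic markers, and Entpd1 1.42 with stromal ones left out too. Ctla4 in Foxp3 cells was -0.018 without cycling cells, -0.019 without naive-state cells and -0.17 without both. The cause was not tested. Scaling by the median of ratios shifted CD8, CD4 and Foxp3 values by -0.07, -0.14 and -0.02. Tigit, Cd160 and Cd244 outside CD8 cells rest on few UMIs, as does Entpd1 in CD4 cells. No paired analysis was possible because each condition has 1 library.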

Other observations

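Co-detection was found within the naive-state CD8 cells as well. Over the pairs expected in at least 5 thinned cells, 17 of 17 untreated and 12 of 12 treated pairs had an odds ratio above 1, with median log2 odds ratios of 2.27 and 1.89. At least 2 receptors were detected in 11.3% of untreated (10.3 to 12.4) and 18.6% of treated naive-state CD8 cells (16.5 to 20.8). In these cells Pdcd1 stood at 150 CPM untreated and 181 CPM treated, Lag3 at 104 and 114 CPM and Ctla4 at 113 and 141 CPM. No receptor was detected in 73.4% and 62.6% of them.

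T cells outside the 3 gates and gamma delta-gated cells held fewer receptors. In other T cells (1216 untreated and 633 treated) Ctla4 stood at 81.0 and 103 CPM, Pdcd1 at 34.4 and 24.9 CPM and Cd160 at 26.9 and 27.0 CPM. In gamma delta-gated cells Cd160 stood at 117 and 50.9 CPM, from 58 and 16 UMIs, and Havcr2 had 6 UMIs in 69 untreated and 0 in 72 treated cells.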
